A study of Mus musculus with 9 samples.

Results

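The genes described here are Atp13a3 and 9 further genes of polyamine metabolism: Atp13a1, Atp13a2, Odc1, Amd1, Srm, Sms, Sat1, Oaz1 and Azin1. Atp13a3 was chosen on measured values, because it was lower in the mean of 2 hairpins against Apela than in a luciferase hairpin, and the other genes were added by their role. Of the 10 genes, 7 were measured, out of 19938 genes tested in the series. A gene counted as measured where the array had a probe set, a group of short probes for the same transcript, that carried its symbol and no other. Atp13a3 and Odc1 had 2 such probe sets each, and Atp13a1, Atp13a2, Srm, Sat1 and Azin1 had 1 each. Amd1, Sms and Oaz1 had none, and they were not analysed here.

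All RNA came from R1E cells, a line of mouse embryonic stem cells, grown in 15% serum with leukemia inhibitory factor (1000 units/ml), which keeps such cells from differentiating. A lentivirus delivered the short hairpin RNAs, and the groups were shApela_2 (3 arrays), shApela_1 (3 arrays), each a different hairpin against Apela, and shLuc (3 arrays), a control hairpin against luciferase, for which mouse cells have no target gene. Every group was transduced, and the sample labels name no drug treatment. Whether the 3 repeats come from independent cultures is not stated in the labels, so p-values reflect the spread among these arrays alone, and that spread may be technical.

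Polyamines (putrescine, spermidine and spermine) are small positively charged molecules that bind nucleic acids and that growing cells need. Cells make them from ornithine: Odc1, ornithine decarboxylase, yields putrescine, and the synthases Srm and Sms add aminopropyl groups that Amd1 supplies, giving spermidine and then spermine. Sat1 acetylates polyamines so that they can be exported or broken down, the antizyme Oaz1 binds ornithine decarboxylase and sends it to the proteasome, and Azin1 holds antizyme back. Polyamines also enter from outside, and the P5-type ATPases Atp13a3 and Atp13a2 carry them out of endosomes and lysosomes into the cytosol. In mouse embryonic stem cells high Amd1 is known to support self-renewal.

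Values are log2 levels after robust multi-array averaging (RMA), so a difference of 1 is a doubling, and levels of different probe sets are not comparable with each other. Array medians lay between 7.03 and 7.07 on 8 arrays and at 7.12 on the third shApela_2 array. That array stood apart: its highest correlation with any other array was 0.9953, against at least 0.9987 for the others. The targeted gene Apela measured 9.79, 9.79 and 9.56 in shApela_2, 9.76, 9.68 and 9.65 in shApela_1, and 11.40, 11.31 and 11.19 in shLuc. The hairpin difference for Apela, shApela_2 minus shApela_1, was 0.02 with a 95% interval of -0.16 to 0.20. All 8 markers of embryonic stem cells were above the median probe set (7.06) in every group, and their mean level per array lay between 11.75 and 11.85 in shApela_2, 11.77 and 11.80 in shApela_1, and 11.77 and 11.80 in shLuc. Among markers of other cell types, the mean of 6 trophectoderm genes was 7.47 to 7.57 in shApela_2, 7.20 to 7.49 in shApela_1 and 7.50 to 7.63 in shLuc. For shApela_1 minus shLuc, Krt8 differed by -0.49, Krt18 by -0.46 and Eomes by -0.18, while Hand1, Cdx2 and Elf5 lay between -0.04 and 0.06, and none of the 6 passed the threshold. The part of these genes in the results below was not tested. The mean of the 7 fibroblast markers lay between 6.37 and 6.64 on all 9 arrays. Above the median probe set were 4 of these 7 in shApela_2, 4 in shApela_1 and 3 in shLuc. The same held for 4, 3 and 3 of the 6 trophectoderm genes in that order. A level above that median is thus not particular to markers of embryonic stem cells.

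Atp13a3 was lower with both hairpins than with shLuc, and it was lowest with shApela_1. Atp13a3 is a transporter of late and recycling endosomes through which cells take up polyamines. On its brighter probe set Atp13a3 measured 10.73, 10.77 and 10.72 in shApela_2 (mean 10.74 ± 0.02, SD, n = 3). The same probe set gave 10.42, 10.42 and 10.34 in shApela_1 (10.40 ± 0.05) and 10.88, 10.89 and 10.92 in shLuc (10.90 ± 0.02). The 3 groups did not overlap on any array, with shApela_2 between shApela_1 and shLuc.

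These levels chose the gene, so the differences from shLuc are described without a test. Their intervals make no allowance for that choice, and the sizes may be overstated by it. For shApela_1 minus shLuc the difference was -0.50 (SE 0.04, 95% interval -0.59 to -0.41), which leaves 70.6% of the shLuc level. For shApela_2 minus shLuc it was -0.16 (SE 0.04, interval -0.25 to -0.07), or 89.5% of shLuc. The mean of both hairpins minus shLuc, the value behind the choice, was -0.33 (SE 0.03), or 79.5% of shLuc. In a culture measured in bulk, fewer cells with the transcript and less of it per cell cannot be told apart.

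The dimmer probe set of Atp13a3 gave larger differences from shLuc and more spread between arrays. It measured 7.72, 7.64 and 7.34 in shApela_2 (7.57 ± 0.20, SD, n = 3), 7.19, 7.12 and 7.49 in shApela_1 (7.27 ± 0.20), and 8.29, 8.16 and 8.06 in shLuc (8.17 ± 0.12). All 6 hairpin arrays were below all 3 shLuc arrays, while the hairpins overlapped each other on the third array of each. The difference was -0.60 (SE 0.12) for shApela_2 minus shLuc, leaving 66.1% of the shLuc level. It was -0.90 (SE 0.12) for shApela_1 minus shLuc, leaving 53.6%. The level left with shApela_2 was thus 89.5% or 66.1% of shLuc, depending on the probe set. The sources used here do not give which part of the transcript each probe set reads. Of 21775 probe sets fitted each on its own, 0.0138% passed an adjusted p of 0.05 for shApela_2 minus shLuc, 0.308% for shApela_1 minus shLuc and 0.0138% for the mean of both hairpins.

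**Figure D1:**
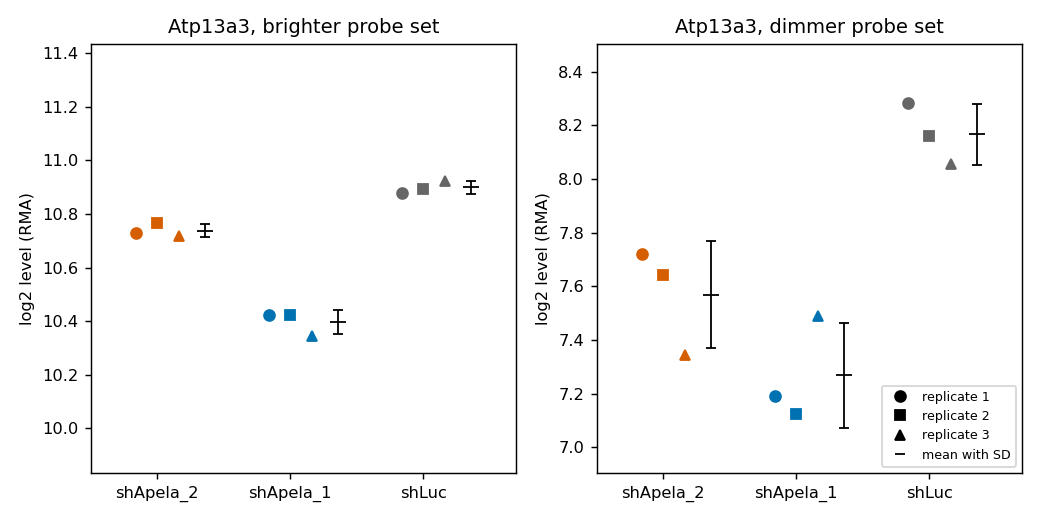
Log2 level of Atp13a3 on each array for its 2 probe sets, with shApela_2, shApela_1 and shLuc from left to right; symbols mark the replicate number, and the bars give the mean with its SD (n = 3). On the brighter probe set the shApela_2 arrays (10.72 to 10.77) lie between the shApela_1 arrays (10.34 to 10.42) and the shLuc arrays (10.88 to 10.92), and on the dimmer one the hairpin groups overlap.

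The hairpins differed from each other in Atp13a3. The choice of the gene did not use this contrast, but it used the same arrays, which share an estimate of the spread. The p-values of this contrast are therefore not fully independent of the choice. On the brighter probe set shApela_2 was 0.34 above shApela_1 (SE 0.04, 95% interval 0.25 to 0.43), or 127% of its level, with no overlap between 3 and 3 arrays (limma, adjusted p = 0.00894 over all genes). Among all genes, 17.6% had no overlap in this contrast. By its p-value Atp13a3 ranked 26 of 19938 genes in this contrast, where 189 genes (0.948%) passed the threshold of 0.05, 71 of them higher and 118 lower with shApela_2 (134 and 120 after a second quantile normalization, 38 and 125 with centred array medians). Without the third shApela_2 array the difference was 0.35 (limma, adjusted p = 0.0112). Without the first or second shApela_1 array it was 0.35 each time, but the limma adjusted p was 0.0553 and 0.0525. A fit of only the 6 hairpin arrays gave the same difference with a limma adjusted p of 0.0683. On the dimmer probe set the difference was 0.30 (SE 0.12, interval 0.02 to 0.58), which missed the threshold in the fit over all probe sets (limma, adjusted p = 0.354), where 0.896% of probe sets passed.

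The related ATPases did not pass the threshold in any comparison. Atp13a1, an ATPase of the endoplasmic reticulum that removes wrongly inserted membrane proteins and is not a polyamine carrier, measured 9.42, 9.34 and 9.42 in shApela_2, 9.43, 9.45 and 9.43 in shApela_1, and 9.38, 9.35 and 9.44 in shLuc. Its differences were 0.01 for shApela_2 minus shLuc (limma, adjusted p = 0.969) and 0.05 for shApela_1 minus shLuc (limma, adjusted p = 1). The hairpins did not overlap for Atp13a1, but they lay only 0.04 apart, with shApela_2 lower (limma, adjusted p = 0.621). Atp13a2, the lysosomal polyamine exporter, measured 8.54, 8.58 and 8.48 in shApela_2, 8.69, 8.66 and 8.46 in shApela_1, and 8.50, 8.54 and 8.49 in shLuc. Its groups overlapped throughout, and the differences from shLuc were 0.02 for shApela_2 (limma, adjusted p = 0.908) and 0.09 for shApela_1 (limma, adjusted p = 0.951). Against shLuc the 95% intervals of Atp13a2 reached from -0.12 to 0.17 for shApela_2 and from -0.05 to 0.24 for shApela_1. Atp13a4 and Atp13a5, further P5-type ATPases, lay below the median probe set, at means of 6.01 and 6.04 in shApela_2, 5.95 and 5.92 in shApela_1, and 5.92 and 5.93 in shLuc.

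The measured enzymes of synthesis did not pass the threshold in any comparison. Odc1, which catalyses the first step, measured 11.39, 11.27 and 11.51 in shApela_2, 11.44, 11.43 and 11.66 in shApela_1, and 11.47, 11.37 and 11.61 in shLuc on its brighter probe set. All groups overlapped, and the differences were -0.10 for shApela_2 minus shLuc (limma, adjusted p = 0.724), 0.03 for shApela_1 minus shLuc (limma, adjusted p = 1) and -0.13 for shApela_2 minus shApela_1 (limma, adjusted p = 0.530). The second Odc1 probe set measured 11.26, 11.15 and 11.19 in shApela_2, 11.27, 11.23 and 11.57 in shApela_1, and 11.33, 11.23 and 11.51 in shLuc. It gave -0.16 for shApela_2 minus shLuc (limma, adjusted p = 0.680) and -0.16 for shApela_2 minus shApela_1 (limma, adjusted p = 0.508). How far near-identical copies of the Odc1 sequence add to these probe sets is not known from the files. Srm, spermidine synthase, measured 12.01, 11.96 and 12.15 in shApela_2, 11.88, 11.89 and 12.09 in shApela_1, and 12.01, 12.00 and 12.23 in shLuc. Its largest difference was -0.13 for shApela_1 minus shLuc, with an interval of -0.32 to 0.07 (limma, adjusted p = 0.948).

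Sat1 and Azin1 spread widely between the arrays of a group and did not pass the threshold in any comparison. Sat1, whose acetylation step starts polyamine breakdown and export, measured 9.47, 9.48 and 8.97 in shApela_2, 9.59, 9.51 and 9.40 in shApela_1, and 9.43, 9.53 and 9.24 in shLuc. The third shApela_2 array was the lowest of all 9. The difference between the hairpins, shApela_2 minus shApela_1, was -0.19 with an interval of -0.50 to 0.12 (limma, adjusted p = 0.528), and it was -0.03 without that array. Azin1, the antizyme inhibitor, measured 10.21, 10.32 and 9.85 in shApela_2, 10.37, 10.25 and 9.99 in shApela_1, and 10.26, 10.32 and 10.12 in shLuc. Its groups overlapped in every comparison, and for shApela_2 minus shLuc the difference was -0.11 (limma, adjusted p = 0.779) with all arrays and 0.03 without the third shApela_2 array.

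**Figure D2:**
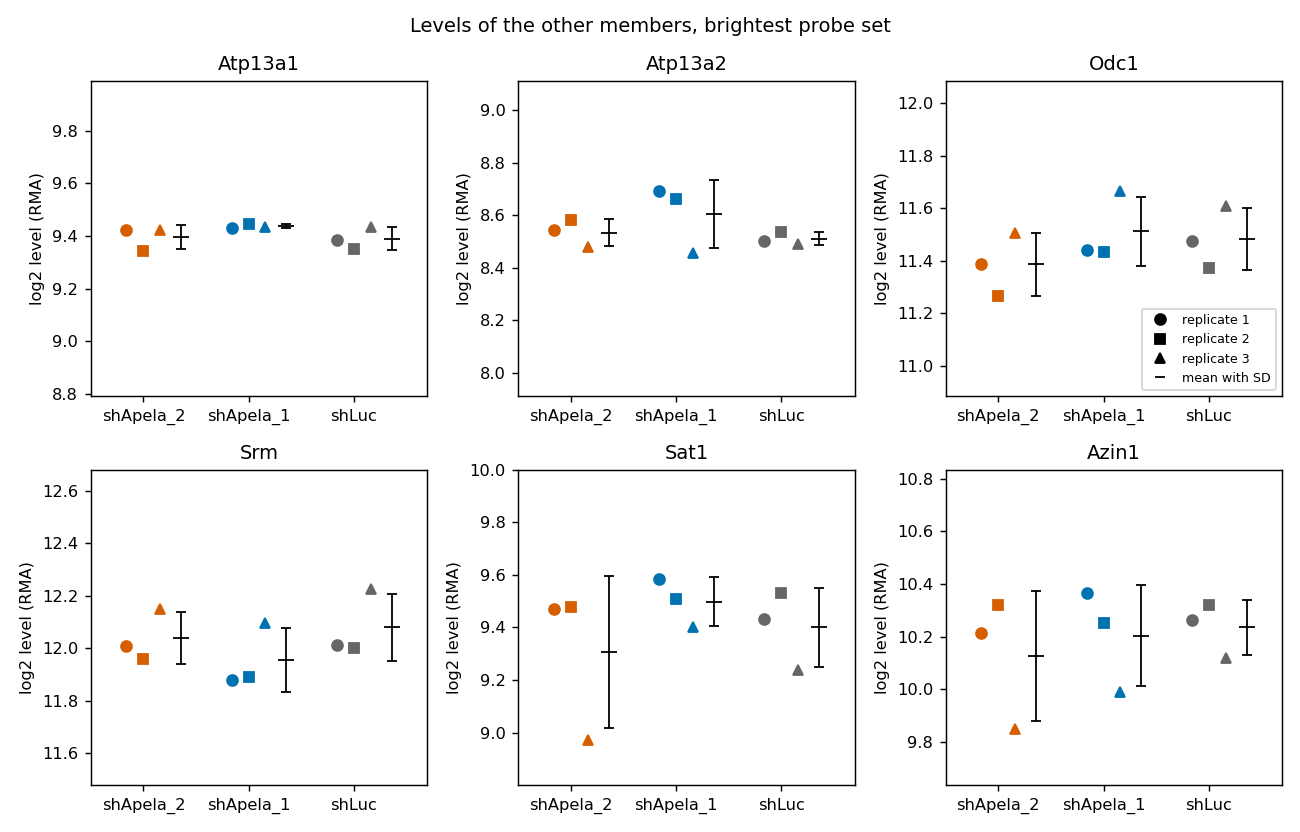
Log2 level of Atp13a1, Atp13a2, Odc1, Srm, Sat1 and Azin1 (brightest probe set) on each array, with shApela_2, shApela_1 and shLuc from left to right; symbols mark the replicate number, bars give the mean with its SD (n = 3), and each vertical axis spans the same range. The hairpin groups overlap shLuc in all 6 panels, and Sat1, Azin1 and Atp13a2 are lowest on the third array of each group.

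Counted together, 0 of the 6 measured genes other than Atp13a3 passed the threshold in any of the 4 comparisons (limma), and 0 had an unadjusted p under 0.05, which 4.58% to 12.9% of all genes had, depending on the comparison. The background at the threshold was low: 0.015% of all genes passed for shApela_2 minus shLuc, 0.336% for shApela_1 minus shLuc, 0.015% for the mean of both hairpins and 0.948% for shApela_2 minus shApela_1, so a count of 0 among 6 is near what all genes show. In all 4 comparisons the 95% interval of each of the 6 genes stayed within a 1.5-fold change in either direction. Taken over the 6 genes, the intervals reached from -0.41 to 0.21 for shApela_2 minus shLuc, from -0.33 to 0.41 for shApela_1 minus shLuc and from -0.50 to 0.28 for shApela_2 minus shApela_1. The median change of the 6 genes was -0.07 for shApela_2 minus shLuc and 0.04 for shApela_1 minus shLuc, beside 0.02 and 0.01 over all genes.

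The wider pathway was read from 9 lists by role, with 38 of 45 further genes measured. In the main fit, which left the replicate number out, 0 of the 38 passed the threshold in any comparison (limma). At an unadjusted p under 0.05 there were 2 of the 38 for shApela_2 minus shLuc, 4 for shApela_1 minus shLuc, 2 for the mean of both hairpins and 5 for shApela_2 minus shApela_1. Over all genes the shares at that p were 5.77%, 7.69%, 4.58% and 12.9% in the same order, so the counts are near the background. Groups that did not overlap were about as frequent as among all genes in the hairpin comparisons with shLuc. They made up 10.5% of the 38 genes for shApela_2 minus shLuc, where all genes gave 10.3%, and 13.2% for shApela_1 minus shLuc, where all genes gave 13.7%. The share was 13.2% for shApela_2 minus shApela_1, where all genes gave 17.6%, and 5.26% (2 genes) for the mean of both hairpins, where all genes gave 2.17%. Median changes of the 38 genes lay between -0.005 and 0.0088, and those of all genes between 0.0062 and 0.0186.

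**Figure D3:**
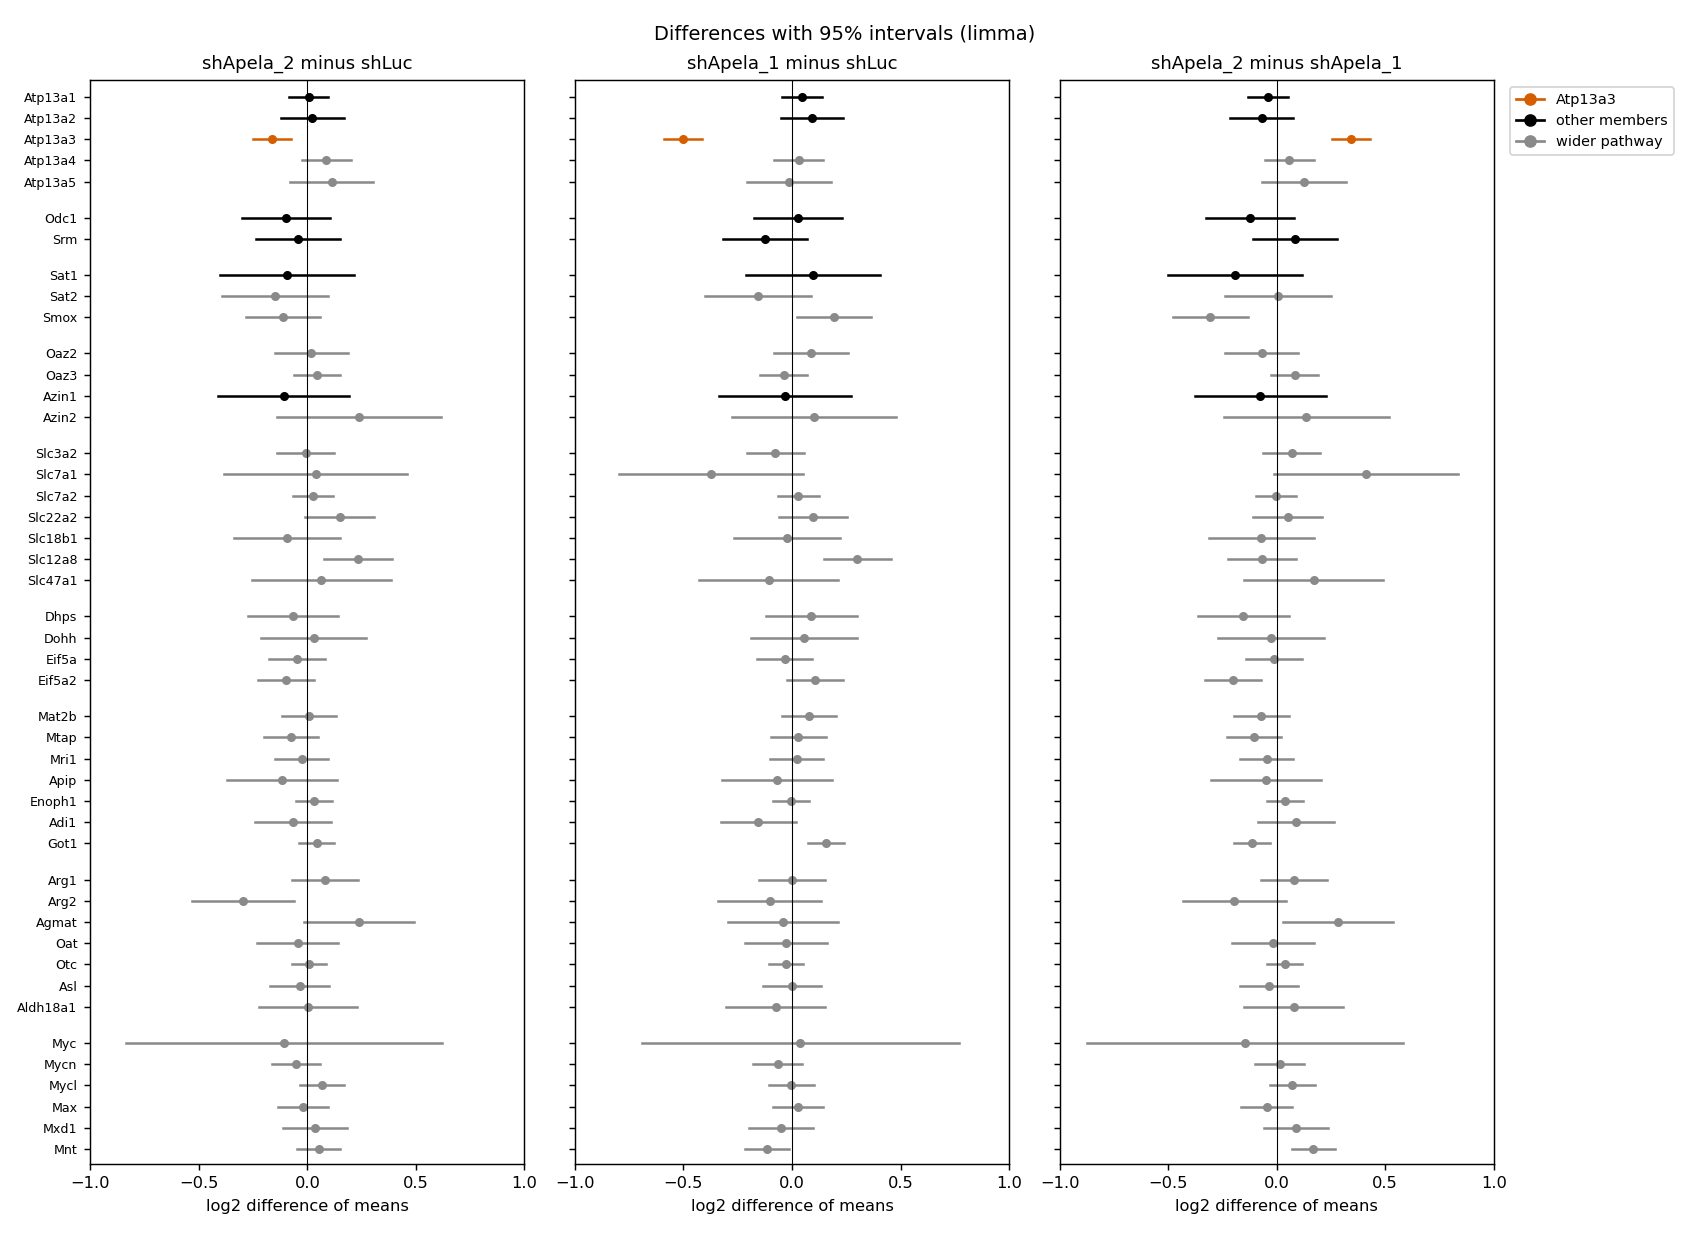
Differences of log2 means (points) with 95% intervals from limma for the 7 measured genes and the 38 further pathway genes, grouped by role, for shApela_2 minus shLuc, shApela_1 minus shLuc and shApela_2 minus shApela_1. Atp13a3 lies at -0.16, -0.50 and 0.34, and the intervals of the other 6 members include 0 in all 3 panels.

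Of the 38 genes, Slc7a1 had the largest difference for shApela_1 minus shLuc and for shApela_2 minus shApela_1, and it did not pass the threshold. Slc7a1, the main carrier of arginine and other cationic amino acids, measured 9.11, 9.09 and 9.63 in shApela_2, 8.79, 8.68 and 9.12 in shApela_1, and 9.10, 9.06 and 9.55 in shLuc. Within each replicate number shApela_1 was the lowest of the 3 groups, and the third array was the highest of each group. For shApela_2 minus shApela_1 the difference was 0.41 (SE 0.19), with a limma adjusted p of 0.400, and of 0.00843 with the replicate number as a block. For shApela_1 minus shLuc it was -0.37 (SE 0.19), with a limma adjusted p of 0.759, and of 0.0224 with the block. For shApela_2 minus shLuc it was 0.04 (limma, adjusted p = 0.949). Slc3a2, the shared heavy chain of several amino acid carriers, differed by -0.01 for shApela_2 minus shLuc and by -0.08 for shApela_1 minus shLuc. Of the enzymes that turn arginine into ornithine, Arg1 lay below the median probe set. Arg2, the mitochondrial arginase, measured 7.73, 7.48 and 7.50 in shApela_2 and 7.80, 7.79 and 8.02 in shLuc, without overlap, at a difference of -0.30 (limma, adjusted p = 0.680).

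Smox, the oxidase that converts spermine back into spermidine, measured 8.76, 8.75 and 8.60 in shApela_2, 9.09, 8.996 and 8.94 in shApela_1, and 8.76, 8.96 and 8.72 in shLuc. The hairpin groups did not overlap, and shApela_2 minus shApela_1 was -0.31 (SE 0.08), with a limma adjusted p of 0.124, and of 0.0419 with the replicate number as a block. Sat2, a relative of Sat1, differed by -0.15 for shApela_2 minus shLuc and by -0.16 for shApela_1 minus shLuc (limma, adjusted p = 0.686 and 0.956). Among the antizyme genes Oaz2 differed by 0.02 and 0.09 in those comparisons. Azin2, a second antizyme inhibitor, measured 8.38, 8.42 and 7.89 in shApela_2, 8.21, 8.25 and 7.82 in shApela_1, and 8.03, 8.15 and 7.80 in shLuc, with overlapping groups.

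Spermidine is also the donor for hypusine, a modified lysine of the translation factor Eif5a. On its brighter probe set Eif5a differed by -0.05 for shApela_2 minus shLuc and by -0.03 for shApela_1 minus shLuc. Its second probe set gave 0.0007 and -0.02 in the same order. The modifying enzymes Dhps and Dohh differed by -0.07 and 0.03 for shApela_2 minus shLuc, and by 0.09 and 0.06 for shApela_1 minus shLuc. Mtap, which recovers methionine from the by-product of polyamine synthesis, differed by -0.07 for shApela_2 minus shLuc and by 0.03 for shApela_1 minus shLuc. None of these values passed the threshold.

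Myc and Mycn, transcription factors for which Odc1 is a known target, did not pass the threshold in any comparison. Myc measured 9.24, 8.68 and 9.83 in shApela_2, 9.14, 9.21 and 9.82 in shApela_1, and 9.20, 9.01 and 9.86 in shLuc, and its intervals against shLuc reached from -0.84 to 0.62 for shApela_2 and from -0.69 to 0.77 for shApela_1. The Myc values therefore bound its change only loosely. Mycn differed by -0.05 for shApela_2 minus shLuc and by -0.07 for shApela_1 minus shLuc, where its groups did not overlap (limma, adjusted p = 0.991).

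Slc12a8 and Got1 were chosen after their values were seen. Slc12a8, of the cation-chloride cotransporter family, measured 7.90, 7.95 and 7.79 in shApela_2, 7.92, 8.002 and 7.92 in shApela_1, and 7.63, 7.78 and 7.54 in shLuc. Every hairpin array was above every shLuc array. The differences were 0.23 (SE 0.07) for shApela_2 minus shLuc (limma, adjusted p = 0.680) and 0.30 (SE 0.07) for shApela_1 minus shLuc, with a limma adjusted p of 0.165, and of 0.0351 with the replicate number as a block. Got1, the aspartate aminotransferase, measured 11.94, 11.94 and 11.92 in shApela_2, 12.03, 12.09 and 12.03 in shApela_1, and 11.90, 11.91 and 11.87 in shLuc. Its groups did not overlap for shApela_1 minus shLuc, at 0.16 (limma, adjusted p = 0.166).

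Srm, Sat1, Azin1, Atp13a2 and the brighter probe set of Odc1 each differed in 1 direction on the third array of every group. The third array minus the mean of the first and second gave 0.18 in shApela_2, 0.23 in shApela_1 and 0.18 in shLuc for that Odc1 probe set, and 0.17, 0.21 and 0.22 in the same order for Srm. Myc gave 0.87 in shApela_2, 0.65 in shApela_1 and 0.75 in shLuc, and Slc7a1 gave 0.53, 0.39 and 0.47. Sat1, Azin1 and Atp13a2 went the other way. Sat1 gave -0.50 in shApela_2, -0.14 in shApela_1 and -0.25 in shLuc, and Azin1 gave -0.42, -0.32 and -0.17. Atp13a2 gave -0.08, -0.22 and -0.03 in the same order. Over all genes the median size of this difference was 0.137 in shApela_2, 0.0623 in shApela_1 and 0.0612 in shLuc. The second Odc1 probe set gave -0.02 in shApela_2, 0.32 in shApela_1 and 0.23 in shLuc. Atp13a3 gave -0.03 in shApela_2, -0.08 in shApela_1 and 0.04 in shLuc on its brighter probe set, and -0.34 in shApela_2, 0.33 in shApela_1 and -0.17 in shLuc on its dimmer one, where the direction thus differed between the groups. The values of Atp13a2 in shApela_2 and shLuc were smaller than the all-gene medians. How many of all genes kept 1 direction on the third arrays was not counted, so a shared direction may be common. The labels do not say what the replicate number stands for, and these differences were not tested.

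The genes whose profile over the 9 arrays was most like that of Atp13a3 (brighter probe set) were Mael, Coq10b, Nr6a1, Esrp1 and Esrp2. They had the highest Pearson correlations among 10236 genes above the median probe set, which is a description of arrays that share their groups and normalization. Mael, a germline piRNA pathway protein, had r = 0.975 (Spearman 0.95) and averaged 10.28 ± 0.05 in shApela_2, 9.82 ± 0.05 in shApela_1 and 10.36 ± 0.03 in shLuc (SD, n = 3 each). Coq10b, a mitochondrial coenzyme Q protein, had r = 0.97, and the orphan nuclear receptor Nr6a1 had r = 0.963. Esrp1 and Esrp2, splicing regulators of epithelial cells, had r = 0.962 and 0.957. Esrp1 averaged 10.25 ± 0.05 in shApela_2, 9.70 ± 0.06 in shApela_1 and 10.34 ± 0.12 in shLuc. All 5 were lowest with shApela_1, as their choice by likeness to Atp13a3 makes likely. For shApela_2 minus shLuc they differed by -0.09 to -0.05 (limma, adjusted p = 0.680 to 0.711). Without the third shApela_2 array the 5 correlations lay between 0.957 and 0.979. The other measured polyamine genes had r between -0.557 (Atp13a1) and 0.429 (Srm) with Atp13a3 over the 9 arrays.

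**Figure D4:**
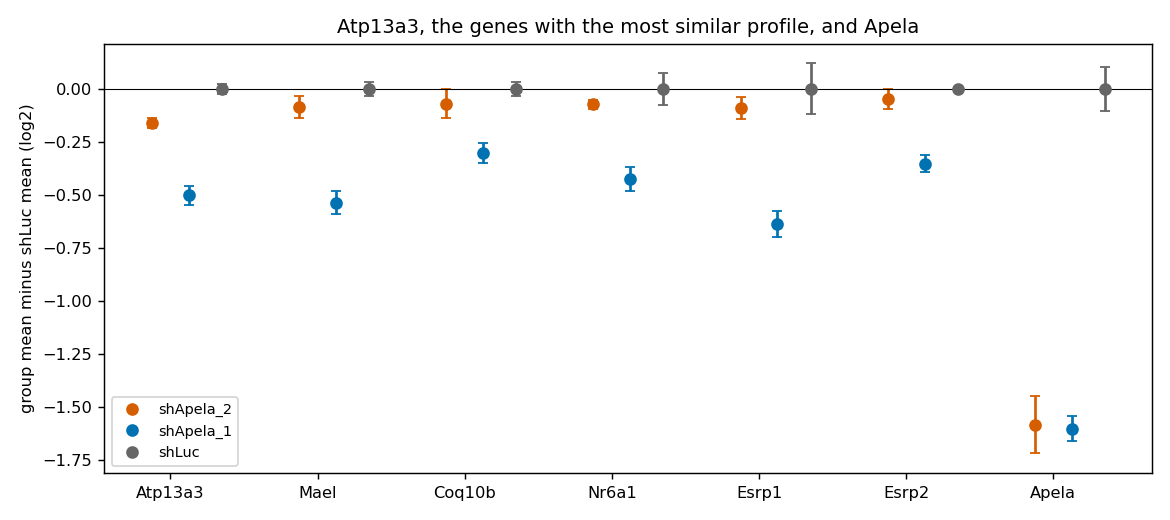
Group mean minus the shLuc mean on the log2 scale for Atp13a3, the 5 genes with the most similar profile and Apela, with shApela_2, shApela_1 and shLuc from left to right for each gene; bars give the SD of the 3 arrays. Atp13a3 lies at -0.16 with shApela_2 and -0.50 with shApela_1, and the similar genes are also lower with shApela_1 than with shApela_2, while Apela lies at -1.58 with shApela_2 and -1.60 with shApela_1.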

How the data were processed

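Total RNA was measured on 9 arrays, 3 for each of shApela_2, shApela_1 and shLuc, grouped by sample title. The authors deposited log2 expression values per probe set, made by RMA in Partek 6.6, per the submitters' processing notes; base 2 was read from the values. RMA forces all arrays to a common distribution at the level of single probes, so a change in total RNA is not visible. The probe set values still differed somewhat in distribution. Their interquartile range was 3.295 on the third shApela_2 array and 3.503 to 3.587 on the others. No scanner intensities were used here. Precision is limited by the number of arrays.

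Of 28853 probe sets, GEO's platform annotation named a single gene for 21775, several for 1578 and none for 5500. Only those with a single gene were analysed, and 21684 of them matched the RefSeq table of GRCm38.p6, which changed 0 symbols. Each of the 19938 genes stood as its brightest probe set. Differences were tested with limma 3.58.1 (lmFit, eBayes, two-sided; R 4.3.3) in 1 fit of all 9 arrays, with Benjamini-Hochberg adjustment over all genes of a comparison and a threshold of 0.05, and probe sets in a second such fit. The fit was run on simulated data with independent noise, no pairing of replicate numbers and no outlying array. The planted changes were larger than those of Atp13a3, so this run checks the code alone. Both comparisons with shLuc share its 3 arrays.

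As a check of pairing, deviations from the group mean were correlated between arrays that share a replicate number. They correlated at 0.178, 0.213 and 0.209 for shApela_2 with shApela_1, and 0.440, 0.401 and 0.684 for shApela_1 with shLuc, all above 0.1, so the numbers were taken to pair these groups from the data alone. The values were -0.013, 0.673 and 0.470 for shApela_2 with shLuc, which did not meet that rule. The main fit left the replicate number out, so its p-values take no account of this pairing. The replicate block was run as an alternative.

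The members, the 9 role lists and the marker lists were chosen with earlier results of these data known. Named were all members, Apela, 16 measured genes picked by role, any pathway gene past the threshold, and the 5 genes most correlated with Atp13a3, without predicted genes and small RNAs. Alternatives covered the prior, dim genes, normalization, array weights, the replicate block, the arrays in the fit, the choice of probe set and leaving out each array. A fit of only replicates 1 and 2 was chosen after seeing the data.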

Additional observations from a re-analysis of the deposited data

Results flagged for a closer look

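Atp13a3 was marked because the hairpins differed in it by a test of the difference itself: shApela_2 was 0.34 above shApela_1 on the brighter probe set (limma, adjusted p = 0.00894), with 3 of 3 shApela_2 arrays above 3 of 3 shApela_1 arrays. Groups without overlap were found for 17.6% of all genes in this contrast. Apela itself differed by 0.02 between the same groups.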

How the results depend on the processing

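The 6 other members stayed at 0 calls under every alternative run: 24 results gave 450 alternative values, all 450 on the same side of the threshold, with 30 changes of sign among these small differences. No result that passed the threshold reversed. The size of Atp13a3 depended on the probe set: the dimmer probe set alone gave -0.60 for shApela_2 minus shLuc, -0.90 for shApela_1 minus shLuc and -0.75 for the mean of both hairpins, and the mean of its probe sets gave -0.38, -0.70 and -0.54. Centred array medians gave -0.20 for shApela_2 minus shLuc, and replicates 1 and 2 alone gave -0.46 for shApela_1 minus shLuc. Leaving out each array gave -0.17 to -0.15 for shApela_2 minus shLuc, -0.52 to -0.47 for shApela_1 minus shLuc and -0.34 to -0.32 for their mean. For shApela_2 minus shApela_1 Atp13a3 no longer passed with the mean of its probe sets (0.32; limma, adjusted p = 0.0601) or with only the compared arrays (0.34), and leaving out each array gave 0.31 to 0.35 (limma, adjusted p = 0.0112 to 0.0553). The replicate block kept its call (limma, adjusted p = 0.0105).

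Counts of genes over the threshold moved widely. For shApela_2 minus shLuc the 3 genes became 7 with a second quantile normalization (1 up, 6 down), 23 with array weights, 8 with the replicate block, and 2 to 6 on leaving out each array. For shApela_1 minus shLuc the 67 genes (28 up, 39 down) became 37 with an intensity trend and robust prior, 31 with centred array medians (10 up, 21 down), 99 with a second quantile normalization (29 up, 70 down), 688 with array weights, 190 with the replicate block, 44 with only the compared arrays, 249 with replicates 1 and 2, and 3 to 146 on leaving out each array. For the mean of both hairpins the 3 genes became 7 with a second quantile normalization (2 up, 5 down), 31 with array weights, and 1 to 6 on leaving out each array. For shApela_2 minus shApela_1 the 189 genes became 1446 with array weights, 653 with the replicate block, 28 with only the compared arrays, 434 with replicates 1 and 2, and 19 to 222 on leaving out each array. The causes were not tested.

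Among the 38 pathway genes the count of 0 became, with array weights, 2 for shApela_1 minus shLuc (Slc12a8, Got1) and 4 for shApela_2 minus shApela_1 (Smox, Got1, and the Eif5a relative Eif5a2 and the Myc antagonist Mnt, chosen after their values were seen). With the replicate block it became 2 for shApela_1 minus shLuc (Slc12a8, Slc7a1) and 2 for shApela_2 minus shApela_1 (Slc7a1, Smox), and the block changed no call of the 6 other members, no further call of the 38 pathway genes, and not that of Atp13a3 between the hairpins. The differences of Atp13a3 from shLuc were not tested. With replicates 1 and 2 the count of pathway genes became 1 in each of these comparisons, Slc7a1 (-0.35 and 0.36; limma, adjusted p = 0.0429 and 0.0263). Calls rose among all 19938 genes as well. For shApela_1 minus shLuc they went from 67 to 688 with array weights, 190 with the block and 249 with replicates 1 and 2. For shApela_2 minus shApela_1 they went from 189 to 1446, 653 and 434 in the same order. The pathway counts are therefore no sign of a change particular to these genes.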

Other observations

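The 4 protein-coding genes on either side of Atp13a3 in the RefSeq gene order were examined after the values of Atp13a3 were known. These were Hes1, Cpn2, Lrrc15 and Gp5 on one side, and Tmem44, Lsg1, Fam43a and Xxylt1 on the other. All 8 were measured, and 0 passed the threshold in any of the 4 comparisons (limma). Of all genes 0.015% to 0.948% passed, depending on the comparison, so a count of 0 among 8 is near what all genes show. Gp5 and Tmem44, the nearest, differed by 0.09 and 0.10 for shApela_2 minus shLuc, and by -0.00 and 0.09 for shApela_1 minus shLuc. Lsg1, a ribosome biogenesis GTPase, differed by -0.01 for shApela_2 minus shLuc and 0.01 for shApela_1 minus shLuc. Xxylt1, a xylosyltransferase that acts on Notch, had the smallest adjusted p of the 8, at -0.32 for shApela_2 minus shApela_1 (limma, adjusted p = 0.0860), with means of 8.41 in shApela_2, 8.73 in shApela_1 and 8.67 in shLuc.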
